A study of Danio rerio with 27 samples.

Results

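The response to thioacetamide (TAA), a hepatotoxin that liver enzymes convert into reactive metabolites, was examined in cells sorted for kdrl-driven mCherry from the livers of adult female zebrafish. The 6 libraries compared were all those labelled as reporter-positive endothelial cells (ECs) in a series of 27, 3 from TAA fish and 3 from control fish, and the comparison covered all 18336 genes of the deposited table. All 6 came from the Tg(kdrl:ras-mCherry) line in the AB background, in which the kdrl promoter drives a membrane-bound red fluorophore, and livers were taken apart with trypsin and collagenase before sorting by flow cytometry. The treated fish received TAA at 500 mg/kg into the peritoneum 6 times over 2 weeks, and the control fish were injected on the same schedule without TAA. The control injection is given as sterile water and as saline in different places. Mentioned beside these are the 3 mCherry-negative libraries of control fish of the same line and the reporter-positive TAA and control libraries, 3 of each, of the Tg(fabp10a:dsRed) line for hepatocytes (HEPs) and the Tg(hand2:EGFP) line for hepatic stellate cells (HSCs). No mCherry-negative library of TAA fish was analysed here. How many fish gave a library is not stated, and fewer control fish are named than control libraries were made, so some libraries may share fish and the errors below may be too small. The study's read statistics also set the TAA libraries apart from the control libraries in the share of duplicate reads, and whatever lies behind this cannot be told apart from treatment.

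Hepatic endothelial cells line the sinusoids, the permeable capillaries between the plates of hepatocytes. They carry receptors for VEGF, angiopoietin, Notch and BMP ligands, keep contact through VE-cadherin, clear waste from blood through scavenger receptors and send signals that set growth and zonation of the hepatocytes. kdrl encodes a zebrafish VEGF receptor whose promoter is widely used to mark endothelium. Hepatocytes secrete plasma proteins and hold the enzymes of detoxification, fatty acid oxidation and bile acid synthesis, and in female fish they make the egg yolk precursors, the vitellogenins.

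The transcript of kdrl (ENSDARG00000105215), the gene whose promoter marks the sorted cells, was checked first. Its rlog value, a shrunken log2 expression value, was 2.05, 2.64 and 2.07 in the TAA mCherry-positive libraries, against 12.74, 12.78 and 12.51 in the control mCherry-positive libraries. All 3 TAA values lay under all control values, and also under the values of the mCherry-negative control libraries, which were 9.44, 5.34 and 6.79, and of the TAA HEP libraries, which were 5.62, 4.44 and 4.30. The difference between TAA and control mCherry-positive libraries was -10.42 (SE 0.53, 95% interval -11.52 to -9.32, adjusted p = 6.52e-12), the largest fall of all genes with a symbol. Against the mCherry-negative controls the TAA mCherry-positive libraries were lower by -4.94 on the log2 scale (adjusted p = 0.000716), and against the TAA HEP libraries by -2.54 (adjusted p = 0.00632).

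The 19 endothelial markers matched by symbol behaved like kdrl. Their mean rlog was 0.51, 0.81 and 0.80 in the TAA mCherry-positive libraries, against 8.62, 8.53 and 8.25 in the control mCherry-positive libraries, a difference of -7.76 (two-sided exact permutation p = 0.1, the smallest that 3 against 3 can give). In the mCherry-negative controls this mean was 5.47, 2.42 and 3.13, with replicate 1 well above the other replicates, and in the TAA HEP libraries it was 1.68, 1.29 and 0.98. Thus the label of the TAA libraries as endothelial cells was not borne out by their transcripts, while that of the control libraries was. The groups are therefore called TAA and control mCherry-positive libraries below, and no other cell type is assigned to the TAA libraries. The study counted reads of the reporters, found far more of them in fluorescent-positive samples and took this as evidence of purity. Its text does not say whether TAA samples were among these, and reporter reads were not examined here. The study also based identity on microscopy and on enriched markers and gene ontology terms of the cells without TAA. It reported lower chromatin accessibility at the kdrl and etv2 promoters in TAA ECs and described a loss of their angiogenic phenotype. Accessibility was not examined here. In bulk libraries such as these, fewer cells of a type and less RNA per cell cannot be told apart.

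**Figure D1:**
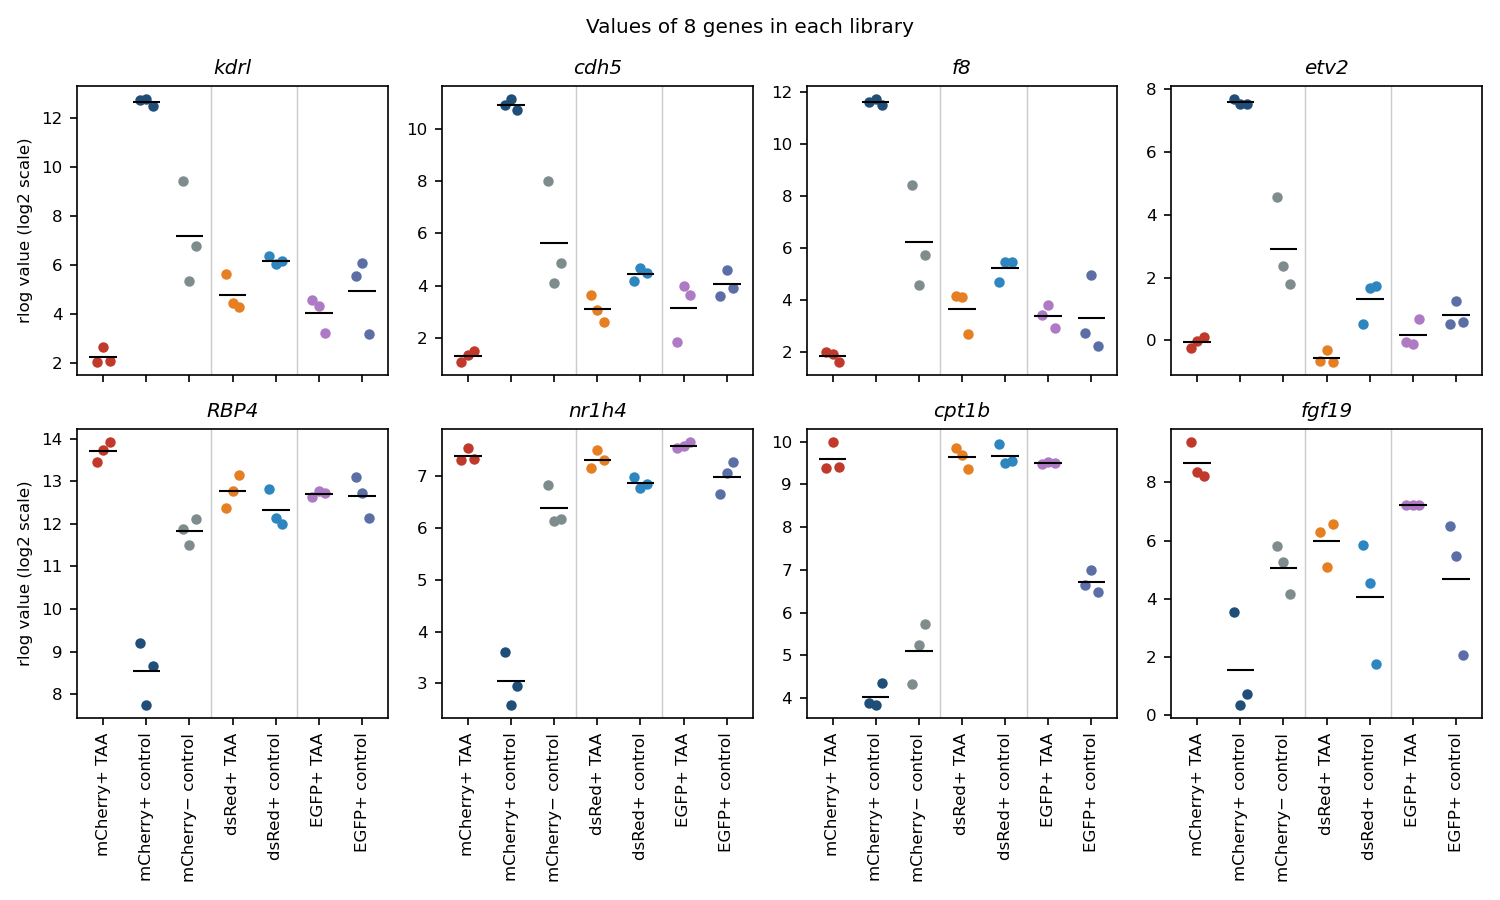
rlog value (log2 scale) of 8 genes in each library of 7 groups, dots for libraries and lines for group means of 3. kdrl, cdh5, f8 and etv2 lie lower in all 3 TAA mCherry-positive libraries than in all 3 control mCherry-positive libraries, with kdrl at 2.05 to 2.64 against 12.51 to 12.78, and RBP4, nr1h4, cpt1b and fgf19 lie higher.

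Of the 18336 genes, 3611 (19.7%) were higher and 5776 (31.5%) lower in TAA than in control mCherry-positive libraries at an adjusted p under 0.05, so that 9387 genes (51.2%) were called. With a change of at least 1 on the log2 scale also required, 3176 were higher and 4835 lower. Without regard to the test, the 3 TAA values lay above the 3 control values for 4654 genes (25.4%) and below them for 6719 (36.6%). The split between directions rested on the scaling: the median difference over all genes was -0.25, and centring each library on its median added 0.58 to every difference and gave 5833 higher and 3756 lower genes (60.8% of the calls higher, against 38.5% without it). Quantile normalization gave 5112 higher and 4557 lower genes. Of the genes that were lower, 2427 (42.0%) had a mean under 1 in the TAA libraries, a range in which the rlog leaves little below.

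Replicates were closer to each other than the groups were. Pairs of replicates differed by a median of 0.27 to 0.35 per gene among TAA and of 0.32 to 0.39 among control mCherry-positive libraries. Across genes, the rlog values of the TAA mCherry-positive libraries correlated with those of the control mCherry-positive libraries at a Pearson r of 0.705 to 0.741 (9 pairs), with those of the mCherry-negative controls at 0.893 to 0.916, with those of the TAA HEP libraries at 0.954 to 0.966 and with those of the TAA HSC libraries at 0.951 to 0.962. The genes are not independent replicates, and these values are descriptions of the libraries. The 7 vitellogenins held 37.3%, 61.0% and 63.9% of the summed expression (2 to the power of the rlog) of the TAA mCherry-positive libraries, against 18.7%, 13.4% and 15.1% of that of the control mCherry-positive libraries. This share was 50.2%, 53.9% and 54.7% in the mCherry-negative controls. It was 53.1%, 64.1% and 43.9% in the TAA HEP and 66.4%, 66.8% and 65.2% in the control HEP libraries. In the HSC line it was 71.0%, 74.7% and 71.5% in TAA and 72.8%, 49.4% and 63.9% in control libraries.

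**Figure D2:**
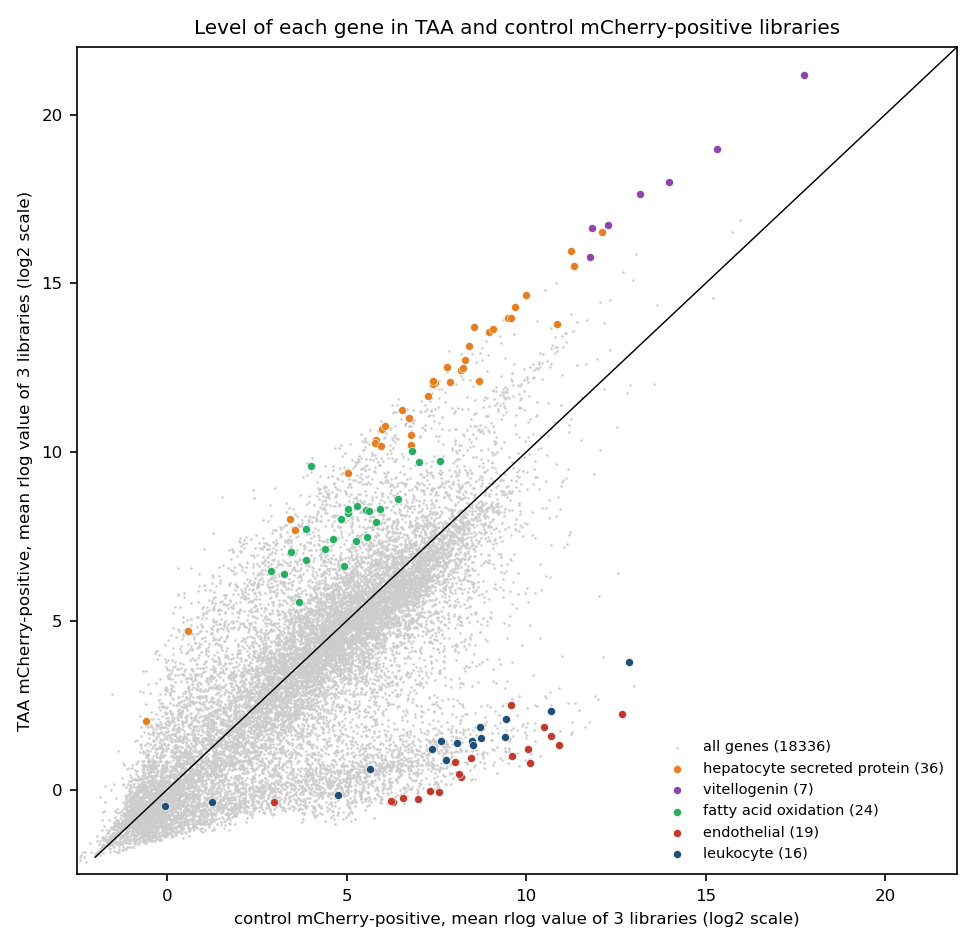
Mean rlog (log2 scale) of 18336 genes in 3 TAA mCherry-positive libraries (vertical axis) against 3 control mCherry-positive libraries (horizontal axis), with 5 gene lists coloured. The 19 endothelial markers lie below the diagonal and all 36 hepatocyte secreted protein genes above it.

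The 10 largest falls among genes with a symbol were those of kdrl, aoc2, f8, oit3, cdh5, emilin1b, fgd5a, dchs1b, DUSP6 and flt1, with differences between -10.42 and -9.31. aoc2 encodes an amine oxidase, and its rlog was 2.97, 2.76 and 3.44 in TAA, against 13.16, 12.96 and 12.90 in control mCherry-positive libraries (difference -9.95, adjusted p = 6.72e-14). DUSP6, a phosphatase that acts on ERK, had 2.59, 3.11 and 2.36 in TAA, against 12.01, 11.87 and 12.11 in control mCherry-positive libraries (difference -9.31, adjusted p = 6.72e-14). The 10 largest rises were those of fgf19, si:dkey-27n6.10, igfbp1b, sult3st2, hp, wu:fd46c06, rn7sl1-2, zgc:103681, sepp1b and zgc:162608, with differences between 7.14 and 5.78. The symbol hp is shared by 2 identifiers, and the rise is that of ENSDARG00000051890.

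**Figure D3:**
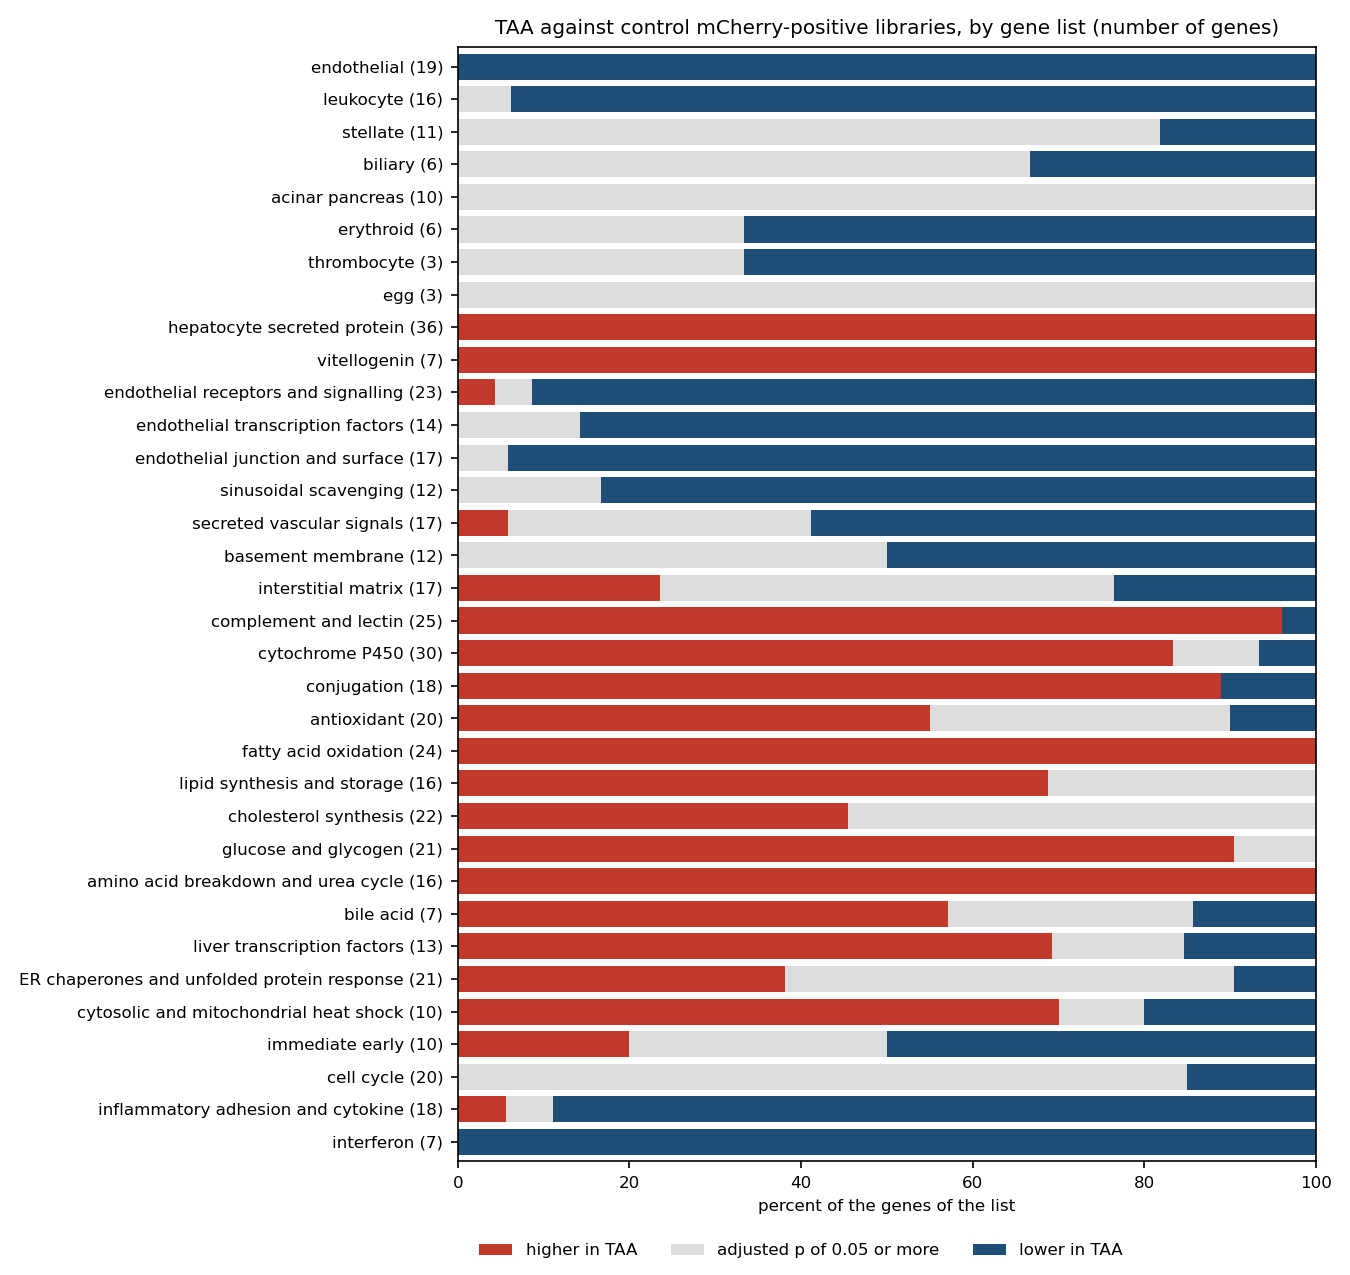
Percent of the genes matched by symbol in 34 lists that were higher, not called or lower in TAA than in control mCherry-positive libraries at an adjusted p under 0.05. Over all genes 19.7% were higher and 31.5% lower, and the endothelial, leukocyte and interferon lists are nearly all lower while all genes of the hepatocyte secreted protein, vitellogenin, fatty acid oxidation and amino acid lists are higher.

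Receptors through which endothelial cells read growth factors were lower nearly throughout. Of 23 receptor and signalling genes, 21 fell and 1 rose (median -7.13, against -0.25 over all genes). Over all genes 31.5% fell and 19.7% rose, and the count of every list below is to be read beside these shares. Every endothelial marker counted above recurs in this list or in those of transcription factors, junctions or scavenging below. The falls in these lists are therefore in part the same falls, counted again. flt4, the VEGF receptor of veins and lymphatics, had rlog values of 0.58, 1.41 and 0.98 in TAA, against 9.65, 9.80 and 9.36 in control mCherry-positive libraries, with no overlap (difference -8.61, SE 0.52, adjusted p = 5.58e-11). flt1, another VEGF receptor, averaged 0.80 ± 0.21 in TAA and 10.11 ± 0.08 in control mCherry-positive libraries (SD, n = 3 each). notch1b, a Notch receptor, had 1.65, 1.94 and 1.62 in TAA, against 11.23, 11.09 and 10.52 in controls (difference -9.21, SE 0.42, adjusted p = 1.91e-12). tek, the angiopoietin receptor, and its partner tie1 differed by -7.67 and -9.12, dll4, the Notch ligand of tip and arterial cells, by -8.43 and acvrl1, a BMP receptor, by -6.95. plxnd1, a semaphorin receptor, kept more of its level, at 5.39, 5.55 and 3.71 in TAA against 9.05, 8.89 and 8.79 in control mCherry-positive libraries (difference -4.03). The exception in direction was jag1b, another Notch ligand, with 7.68, 7.14 and 6.45 in TAA against 4.41, 4.06 and 3.52 in control mCherry-positive libraries (difference 3.10, SE 0.35, adjusted p = 2.81e-07), and the mCherry-negative controls had 6.67, 6.54 and 6.15.

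Transcription factors that specify and maintain endothelium followed. Of 14, 12 fell and none rose (median -6.49), where 31.5% of all genes fell. etv2, the ETS factor at the head of the endothelial programme, had rlog values of -0.26, -0.04 and 0.09 in TAA, against 7.68, 7.53 and 7.52 in control mCherry-positive libraries (difference -7.64, SE 0.40, adjusted p = 9.94e-12). klf2a and klf2b, which respond to blood flow, fell by 8.25 and 8.45 on the log2 scale. fli1a, erg and sox18, further endothelial factors, differed by -7.51, -6.66 and -7.36. The 2 genes not called were NR2F2, a factor of venous endothelium that other liver cells also express, with 7.20, 7.11 and 6.25 in TAA against 7.73, 7.49 and 7.04 in controls (difference -0.56, adjusted p = 0.194), and npas4l (difference 0.44, adjusted p = 0.313).

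Genes of endothelial junctions and of the cell surface gave 16 falls among 17 and no rise (median -7.80). Over all genes 31.5% fell. cdh5, which encodes VE-cadherin, had an rlog of at most 1.51 in TAA and of at least 10.71 in control mCherry-positive libraries (difference -9.59, SE 0.43, adjusted p = 1.91e-12). ptprb, the phosphatase of the VE-cadherin and angiopoietin receptor complexes, had 2.47, 1.94 and 1.62 in TAA, against 11.39, 11.31 and 11.16 in controls (difference -9.28, adjusted p = 1.55e-12). sele, the leukocyte adhesion molecule E-selectin, differed by -9.09. vwf, von Willebrand factor, was at 3.74, 2.87 and 3.36 in TAA against 7.65, 7.11 and 7.03 in controls (difference -3.94). CAV1, the caveolin, was not called, with 7.02, 6.39 and 7.15 in TAA against 6.73, 6.96 and 6.56 in control mCherry-positive libraries (difference 0.10, 95% interval -0.63 to 0.83).

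Scavenging and clotting genes that are typical of sinusoidal endothelium were lower in 10 of 12 cases, with no rise (median -6.25). The share of lower genes over all genes was 31.5%. f8, clotting factor VIII, which in mammals is made mainly by this endothelium, had rlog values of 2.00, 1.95 and 1.63 in TAA, against 11.63, 11.74 and 11.53 in control mCherry-positive libraries (difference -9.78, SE 0.52, adjusted p = 1.11e-11). oit3 and ehd3, a secreted protein and an endocytic protein enriched in sinusoidal cells of mammals, fell by 9.76 and 9.14 on the log2 scale. The hyaluronan and waste receptors stab1 and stab2 differed by -7.07 and -3.34, and stab2 was already low in the control mCherry-positive libraries, at 3.10, 3.52 and 2.29. dab2 (difference 0.76) and ctsla, a lysosomal protease (difference 0.39), were not called.

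Secreted signals of the vasculature were mostly lower, with 10 of 17 lower and 1 higher (median -1.74). Over all genes 31.5% were lower and 19.7% higher. BMP6, which in mammals endothelial cells release to set hepcidin and iron balance, had rlog values of 0.74, 1.53 and 1.13 in TAA, against 8.46, 8.61 and 8.41 in control mCherry-positive libraries (difference -7.36, SE 0.51, adjusted p = 3.38e-10). sema3aa, angpt2a, dhh and pdgfba, ligands of the semaphorin, angiopoietin, hedgehog and PDGF families, fell by 8.33, 7.42, 7.01 and 6.11 on the log2 scale. vegfba, a VEGF ligand, was the gene of the list that rose, with 7.79 ± 0.22 in TAA and 3.22 ± 0.68 in control mCherry-positive libraries (SD, n = 3 each, difference 4.57, SE 0.26, adjusted p = 2.82e-11), and the mCherry-negative controls were at 7.26, 6.97 and 7.04. VEGFA, another VEGF ligand gene that is not among the 17, was also higher in TAA (difference 3.47, adjusted p = 8.92e-10 by limma). WNT9B and RSPO3, signals of zonation in mammals, and hgfa had means under 1 in both mCherry-positive groups and were not called.

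Basement membrane genes were lower in 6 of 12 cases and higher in none (median -1.32), where 31.5% of all genes were lower. The type IV collagen genes of all basement membranes stood out: col4a1 had rlog values of 0.72, 0.97 and 1.13 in TAA, against 9.70, 9.41 and 9.35 in control mCherry-positive libraries (difference -8.55, SE 0.61, adjusted p = 4.64e-10), and col4a2 differed by -7.87. The laminin lama4 of vessel walls differed by -6.16, whereas lamc1, a laminin chain that many cells share, fell by only 1.23. Of 17 interstitial matrix genes 4 were lower and 4 higher, against 31.5% lower and 19.7% higher over all genes, and the members differed in direction. COL6A3, a chain of type VI collagen, was at 2.55, 1.29 and 1.45 in TAA against 9.84, 9.66 and 9.24 in controls (difference -7.82), while the chain col6a1 was at 7.59, 7.66 and 7.56 in TAA against 4.35, 2.07 and 2.39 in controls (difference 4.67, adjusted p = 2.21e-08). The fibrillar collagen genes col1a1a, col1a1b and col1a2 were low in both groups and not called, with differences of 1.03, 0.26 and 0.68.

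**Figure D4:**
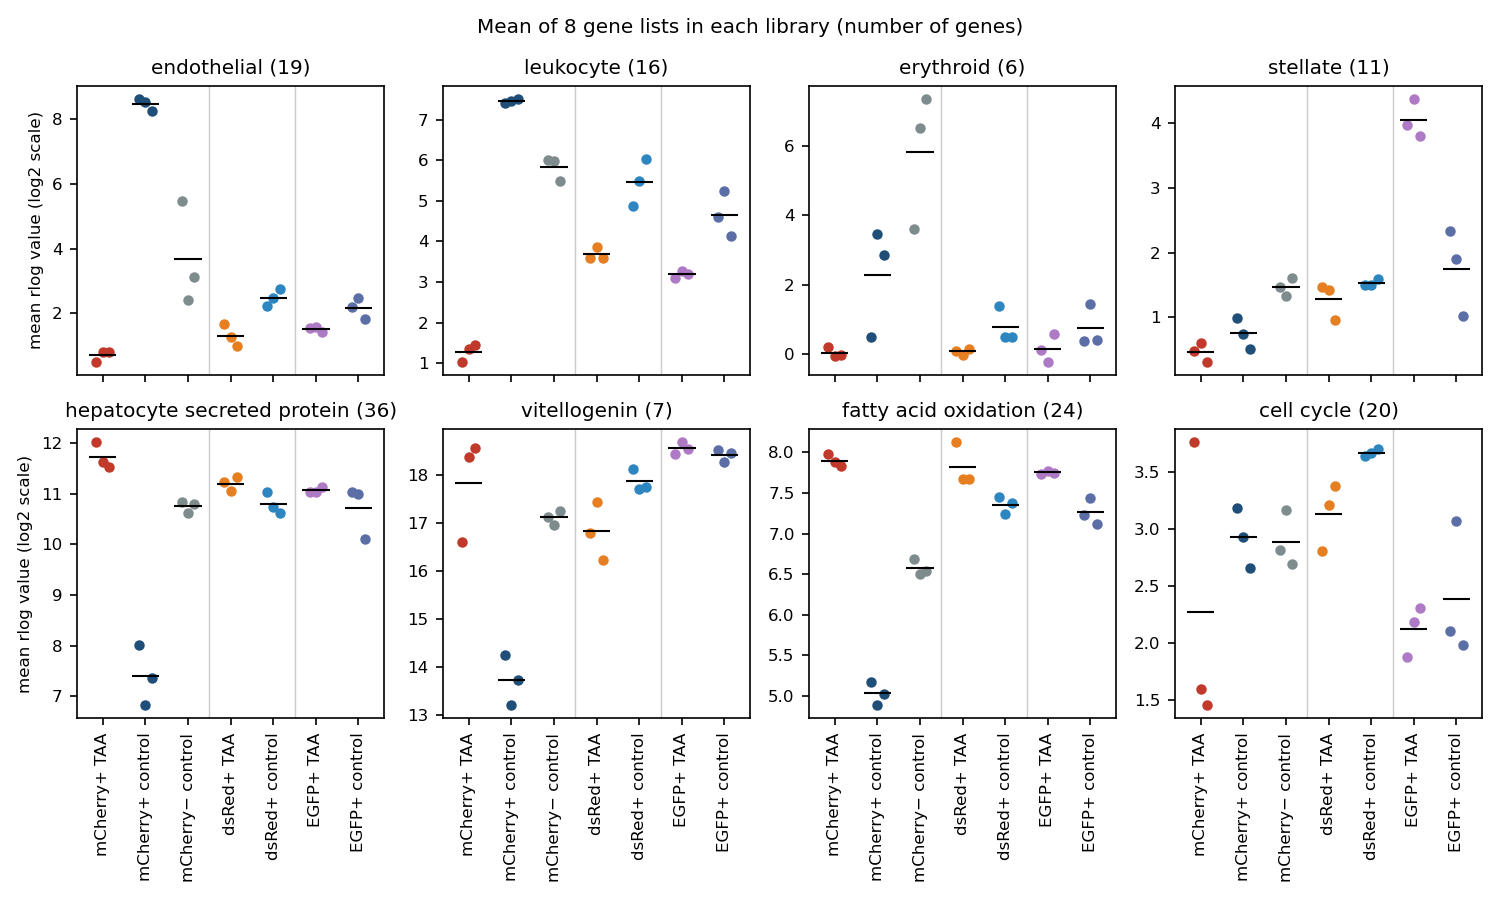
Mean rlog (log2 scale) over the genes of 8 lists in each library of 7 groups, dots for libraries and lines for group means of 3. The endothelial and leukocyte means are lowest in the TAA mCherry-positive libraries, the hepatocyte secreted protein mean is highest there, and TAA replicate 1 stands apart in the vitellogenin and cell cycle panels.

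Leukocyte markers were also lower. Of 16, 15 fell (median -6.86), where 31.5% of all genes fell. The mean of the 16 was 1.04, 1.36 and 1.44 in TAA, against 7.40, 7.46 and 7.50 in control mCherry-positive libraries. The control mCherry-positive libraries thus carried leukocyte transcripts, and at a higher mean than the mCherry-negative controls, at 6.01, 5.99 and 5.49. cd74a, the invariant chain of antigen-presenting cells, had rlog values of 3.38, 3.98 and 3.98 in TAA, against 12.90, 12.53 and 13.14 in controls (difference -9.08, SE 0.33, adjusted p = 2.08e-13). csf1ra, the growth factor receptor of macrophages, differed by -8.38, and c1qb, a complement component made by macrophages, by -7.86. The B cell gene cd79a was near the lower end in both groups and was not called. The TAA mCherry-positive libraries were lower than the TAA HEP libraries for 12 of the 16 markers (2.8% over all genes). All 16 were lower than in the mCherry-negative controls (15.5% over all genes).

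Inflammatory genes moved with these markers, and the part of leukocytes in this was not tested. Of 18 adhesion, cytokine and receptor genes, 16 fell and 1 rose (median -5.55), against 31.5% and 19.7% over all genes. Interleukin 1 beta, encoded by il1b, had rlog values of 1.15, 0.84 and 0.98 in TAA, against 6.18, 5.65 and 6.08 in control mCherry-positive libraries (difference -4.98, SE 0.40, adjusted p = 2.38e-09). The chemokine receptor cxcr4b and the chemokine gene ccl34a.4 differed by -7.53 and -7.56. The NF-kB inhibitor genes nfkbiaa and nfkbiab, which NF-kB itself induces, differed by -3.76 and -2.58. vcam1b, an adhesion molecule, was higher, with 8.53, 8.47 and 8.26 in TAA against 6.46, 6.80 and 7.40 in controls (difference 1.53, adjusted p = 9.9e-05). All 7 interferon-induced genes fell (median -3.66), with differences from -5.87 for the antiviral GTPase gene mxa to -1.39 for irf9.

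Markers of other cells that a liver suspension can hold gave mixed results, where 31.5% of all genes were lower and 19.7% higher. The counts of stellate and biliary markers that fell were near or under the share of lower genes. Of 11 stellate cell markers, PDGFRB (difference -3.49) and COLEC11 (difference -1.52) fell, and the defining gene hand2 was below 0 in all 6 mCherry-positive libraries. The stellate mean was 0.48, 0.61 and 0.32 in TAA and 0.99, 0.75 and 0.52 in control mCherry-positive libraries. With any TAA library or control replicate 1 left out, 1 of the 11 fell. Of 6 biliary markers, epcam (difference -1.50, adjusted p = 0.0489) and krt8 (difference -1.06) fell. The biliary mean was 4.92, 4.91 and 4.71 in TAA and 5.64, 5.42 and 4.96 in control mCherry-positive libraries. With libraries left out in turn 1 biliary marker fell, except that 3 did without control replicate 3, and after median centring none did. Of 6 erythroid markers, 4 fell, with a mean of 0.21, -0.04 and -0.03 in TAA against 0.49, 3.46 and 2.86 in control mCherry-positive libraries, where replicate 1 was low. Without control replicate 1, 5 erythroid markers fell, and without control replicate 2 or 3, 2 did. With any TAA library left out 3 fell, and after median centring or quantile normalization 2 did. Of 3 thrombocyte markers, itga2b and mpl fell by 2.75 and 2.63. None of 10 acinar pancreas markers and none of 3 egg markers was called by limma, and at an unadjusted p under 0.05 the count was 0 for both lists as well. The acinar mean was uneven, at 2.42, 3.78 and 2.04 in TAA and 0.49, 4.11 and 3.47 in control mCherry-positive libraries.

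Genes of the hepatocyte secreted protein list rose together, among them fabp10a, whose product is not itself secreted. All 36 were higher in TAA mCherry-positive libraries (19.7% over all genes), with a median difference of 4.45 and a range of 2.62 to 5.17. Their mean was 12.02, 11.63 and 11.53 in TAA, against 8.01, 6.83 and 7.36 in control mCherry-positive libraries, a difference of 4.32 (two-sided exact permutation p = 0.1, the smallest possible). The same mean was 10.84, 10.61 and 10.80 in the mCherry-negative controls and 11.22, 11.05 and 11.33 in the TAA HEP libraries. RBP4, the plasma carrier of retinol, had the largest rise of these 36, which leave out hp because several identifiers share its symbol. The rlog values of RBP4 were 13.46, 13.75 and 13.92 in TAA against 9.21, 7.75 and 8.67 in controls (difference 5.17, SE 0.33, adjusted p = 9.53e-11). fabp10a, the liver fatty acid binding protein whose promoter marks HEPs in the other line, was at 13.65, 13.66 and 14.10 in TAA against 11.66, 10.45 and 10.44 in controls (difference 2.95, SE 0.31, adjusted p = 1.01e-07). The control mCherry-positive libraries thus also held hepatocyte transcripts, at a lower level.

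The 7 vitellogenins rose by 3.42 to 4.80 (median 4.02). Their mean was 16.60, 18.38 and 18.57 in TAA, with replicate 1 below the others, against 14.26, 13.21 and 13.73 in control mCherry-positive libraries. None of the 7 was called against the mCherry-negative controls or against the TAA HEP libraries. These genes are near-identical in part, and how reads were divided among them is not given in the sources used here, so their single values are uncertain. The same holds for the c3a genes, the apoa4b genes, the cyp2k and cyp2x genes and the alpha globin genes.

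Complement genes, most of them expressed by hepatocytes, were higher in 24 of 25 cases (median 4.40), against 19.7% over all genes. c8b, part of the membrane attack complex, had rlog values of 10.95, 10.55 and 10.36 in TAA, against 6.52, 5.50 and 5.57 in control mCherry-positive libraries (difference 4.76, SE 0.29, adjusted p = 6.46e-11). c7b of the same complex had the largest rise, with 7.01, 7.70 and 6.49 in TAA against 0.84, 1.51 and 3.74 in controls (difference 5.04, SE 0.58, adjusted p = 3.66e-07). c6 alone was lower, with 1.66, 2.23 and 1.71 in TAA against 3.45, 3.56 and 3.30 in controls (difference -1.57, adjusted p = 0.00301), and quantile normalization removed this call (-0.69, adjusted p = 0.156).

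Cytochrome P450 genes, whose products oxidize drugs, steroids and retinoids, were higher in 25 of 30 cases and lower in 2 (median 3.82). Over all genes 19.7% were higher and 31.5% lower. cyp3c3 rose most, with rlog values of 6.29, 6.01 and 6.84 in TAA against 2.32, 0.22 and 0.09 in control mCherry-positive libraries (difference 5.50, SE 0.70, adjusted p = 1.38e-06). It was 1 of 3 genes of the list (1.23% over all genes) that were also higher than in the TAA HEP libraries, at 0.04, 2.07 and 1.38 (difference 5.22, adjusted p = 0.000121). In HEP libraries cyp3c3 fell with TAA, and its change in mCherry-positive minus that in HEP libraries was 8.80. It was also 1 of 9 (4.73% over all genes) that were higher than in the mCherry-negative controls, at 2.22, 1.72 and 2.44. cyp1a, the enzyme induced through the aryl hydrocarbon receptor, differed by 4.21. The 2 that fell were cyp26b1, which breaks down retinoic acid, with 0.11, 0.35 and 0.49 in TAA against 8.95, 8.25 and 8.27 in controls (difference -8.17, SE 0.53, adjusted p = 1.32e-10), and cyp1c1 (difference -1.80).

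Conjugating enzymes were higher in 16 of 18 cases (median 3.41), where 19.7% of all genes were higher and 31.5% lower. The sulfotransferase genes sult3st2 and sult3st3 rose by 6.25 and 5.25 on the log2 scale, and nqo1, a quinone reductase under control of the oxidative stress factor Nrf2, had 6.06, 5.93 and 5.12 in TAA against 0.45, 0.32 and 0.63 in control mCherry-positive libraries (difference 5.24, SE 0.39, adjusted p = 7.19e-10). sult1st1, another sulfotransferase, went the other way, with 0.81, 2.87 and 1.17 in TAA against 5.87, 6.00 and 6.40 in controls (difference -4.47, adjusted p = 1.64e-08). Of 20 antioxidant genes 11 rose and 2 fell (median 1.54). CAT, catalase, was at 11.61, 11.59 and 11.31 in TAA against 7.94, 7.12 and 6.93 in controls (difference 4.17), and the peroxiredoxin prdx1 at 1.16 to 1.60 in TAA against 4.88 to 5.09 in controls (difference -3.64, adjusted p = 7.64e-07). The glutathione synthesis genes GCLC and GCLM were not called (differences of 0.42 and 0.15).

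Genes of fatty acid oxidation rose throughout, where 19.7% of all genes rose. All 24 were higher in TAA than in control mCherry-positive libraries (median 2.77, range 1.69 to 5.57), and 19 of the 24 were higher than in the mCherry-negative controls, where 4.73% of all genes were. Against the TAA HEP libraries none of the 24 was called in either direction (median difference 0.03). The mean of the list was 7.89 in TAA mCherry-positive, 7.82 in TAA HEP and 7.36 in control HEP libraries. cpt1b, a carnitine palmitoyltransferase that lets fatty acids into mitochondria, had rlog values of 9.39, 9.99 and 9.40 in TAA against 3.88, 3.84 and 4.34 in control mCherry-positive libraries (difference 5.57, SE 0.21, adjusted p = 3.11e-13). Its mCherry-negative controls were at 4.33, 5.24 and 5.72 (difference 4.50, adjusted p = 3.02e-06). In the HEP line it was high with and without TAA, at 9.84, 9.69 and 9.37 in TAA and 9.94, 9.51 and 9.54 in control HEP libraries (difference -0.03). cpt1ab, of the same enzyme family, and ppargc1a, a coactivator of mitochondrial genes, differed by 3.85 and 3.59.

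Of 16 genes of lipid synthesis and storage 11 rose and none fell (median 2.54). The acyltransferase genes dgat1a and DGAT2, for the last step of triglyceride synthesis, rose by 4.31 and 4.23, whereas fasn, fatty acid synthase, was at 7.46, 7.37 and 8.39 in TAA and 7.45, 6.83 and 7.41 in controls and was not called. Cholesterol synthesis genes were higher in 10 of 22 cases and lower in none (median 1.23), against 19.7% higher and 31.5% lower over all genes. Only 5 were higher without TAA replicate 3 or without control replicate 2, a count near the share over all genes. hmgcra, for the rate-limiting reductase, was uneven, at 4.36, 2.62 and 7.59 in TAA against 2.89, 0.57 and 1.33 in controls (difference 3.26, SE 1.07, adjusted p = 0.0155), and the groups overlapped. Its call was lost without TAA replicate 3 (difference 1.89, adjusted p = 0.138) and without control replicate 2 (difference 2.75, adjusted p = 0.0703). The LDL receptor gene ldlra rose evenly, with 10.02, 10.14 and 9.93 in TAA against 7.14, 6.14 and 6.99 in controls (difference 3.28, adjusted p = 1.24e-08).

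Glucose and glycogen genes were higher in 19 of 21 cases and lower in none (median 3.94), against 19.7% higher over all genes. igfbp1b, an insulin-like growth factor binding protein that the liver releases in fasting, had rlog values of 8.47, 7.30 and 7.08 in TAA, against 1.29, 1.35 and 1.23 in control mCherry-positive libraries (difference 6.32, SE 0.45, adjusted p = 4.24e-10), and 4.56, 4.23 and 5.44 in the mCherry-negative controls. g6pca.1, glucose-6-phosphatase, differed by 4.58. All 16 genes of amino acid breakdown and the urea cycle rose (median 4.20), among them gls2b, the liver glutaminase (difference 5.06), and TAT, tyrosine aminotransferase (difference 4.84).

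Bile acid genes included the largest rise of all genes with a symbol. fgf19, a hormone that represses bile acid synthesis, had rlog values of 9.38, 8.38 and 8.23 in TAA, against 3.54, 0.34 and 0.70 in control mCherry-positive libraries (difference 7.14, 95% interval 5.05 to 9.22, adjusted p = 4.39e-06). It was also above the mCherry-negative controls, at 5.80, 5.25 and 4.15 (difference 3.60, adjusted p = 0.00502), while against the TAA HEP libraries the difference of 2.69 was not called (adjusted p = 0.176). nr1h4, the bile acid receptor, was at 7.31, 7.53 and 7.34 in TAA against 3.61, 2.59 and 2.95 in controls (difference 4.34, SE 0.23, adjusted p = 1.27e-11), and cyp7a1, the rate-limiting enzyme of bile acid synthesis, differed by 3.74. In all, 4 of the 7 genes rose and 1, the bile salt pump gene abcb11a, fell by 0.67 on the log2 scale, a call that was lost after median centring (difference -0.09, adjusted p = 0.759) and without control replicate 1 (difference -0.48, adjusted p = 0.0635). Liver transcription factors were higher in 9 of 13 cases and lower in 2 (median 3.47). For both lists the shares over all genes were 19.7% higher and 31.5% lower. creb3l3a, a factor anchored in the endoplasmic reticulum, rose by 5.22, foxa1 by 4.53 and HNF4A by 3.43, while creb3l3l fell by 1.95 and CEBPA by 0.82 on the log2 scale. CEBPA was no longer called after median centring (difference -0.25, adjusted p = 0.482) or without TAA replicate 1 (difference -0.55, adjusted p = 0.0869).

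Chaperones of the endoplasmic reticulum (ER) were less uniform, with 8 of 21 genes higher and 2 lower (median 0.74), against 19.7% and 31.5% over all genes. PDIA3, a disulfide isomerase, rose by 2.20 and XBP1, the factor spliced in the unfolded protein response, by 1.69. hspa5, the main ER chaperone, was at 9.79, 9.53 and 10.70 in TAA against 9.17, 8.90 and 9.04 in control mCherry-positive libraries (difference 0.97, adjusted p = 0.0267). The stress factors atf4b and DDIT3 were lower (differences of -0.56 and -0.49), but atf4b differed by 0.01 and DDIT3 by 0.09 after median centring. That centring left no ER gene lower and 11 higher, while it gave 5833 higher among all 18336 genes. The call of atf4b was also lost without TAA replicate 3 or control replicate 1. With each library left out in turn 5 to 10 genes were higher. The count was 5 without TAA replicate 3 or control replicate 2, near the share over all genes.

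Cytosolic and mitochondrial heat shock genes were higher in 7 of 10 cases and lower in 2 (median 1.12), against 19.7% higher and 31.5% lower over all genes. hsp70.3, an inducible HSP70 gene, had rlog values of 8.54, 7.40 and 8.09 in TAA, against 6.45, 6.71 and 6.02 in control mCherry-positive libraries (difference 1.62, SE 0.37, adjusted p = 0.00111) and 5.35, 4.44 and 3.83 in the mCherry-negative controls. HSP90AB1 rose by 2.12 as deposited but differed by -0.60 (adjusted p = 0.0266) after quantile normalization. HSPB1, a small heat shock protein, fell, with 0.29, 0.51 and 1.31 in TAA against 6.94, 7.02 and 6.28 in controls (difference -6.04, SE 0.45, adjusted p = 7.77e-10). Without control replicate 3, 4 genes were higher, and after quantile normalization 5.

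Immediate early genes, which tissue digestion as well as injury can induce, were high in both groups. Of 10, 2 rose and 5 fell (median -0.96), against 19.7% higher and 31.5% lower over all genes, so that the count of rises was near that share. ATF3, a stress-induced factor, had rlog values of 8.76, 7.96 and 8.24 in TAA, against 5.45, 4.98 and 5.24 in control mCherry-positive libraries (difference 3.10, SE 0.36, adjusted p = 4.02e-07), and fosl1a, an AP-1 subunit, differed by 2.05. socs3a, a cytokine-induced inhibitor of signalling, fell by 6.15, and FOSB and JUN, further AP-1 subunits, by 1.98 and 1.17. Quantile normalization gave 7 falls in place of 5, and median centring 3.

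Cell cycle genes did not give an even picture. Of 20, 3 were lower and none higher (4 and 1 at an unadjusted p under 0.05), under the shares of 31.5% lower and 19.7% higher over all genes. Their mean was 3.76, 1.60 and 1.46 in TAA, against 3.18, 2.93 and 2.66 in control mCherry-positive libraries, so that TAA replicate 1 was above all controls and the other TAA libraries below them. mki67, a marker of cycling cells, showed this with 5.95, 1.32 and 1.46 in TAA against 5.05, 4.51 and 4.93 in controls (difference -1.92, adjusted p = 0.0401). Without TAA replicate 1 the difference was -3.44 (adjusted p = 2e-07) and 10 of 20 genes were lower, and without TAA replicate 2 it was -1.13 (adjusted p = 0.243). With any mCherry-positive library other than TAA replicate 1 left out at most 1 gene was lower and mki67 was not called, and after median centring or quantile normalization no gene was lower and 1 was higher.

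Each of these differences sets the TAA libraries against controls that carried endothelial transcripts at a mean of 8.25 or more. They were therefore also set against the TAA HEP libraries, where 739 genes (4.03%) differed, 225 higher (1.23%) and 514 lower (2.8%) in the TAA mCherry-positive libraries. Of the 36 genes of the hepatocyte secreted protein list 2 were higher and none lower, with a median difference of 0.58 over the list. Lower were 3 of the 19 endothelial markers (kdrl, cdh5 by -1.79 and tie1 by -2.81), 12 of 16 leukocyte markers and 7 of 18 inflammatory genes. Higher were 5 of 10 immediate early genes, among them fosl1a by 2.65, ATF3 by 2.46 and FOSB by 1.26, along with hsp70.3 by 2.36, the ER chaperones dnajb9b by 1.75 and dnajc3a by 1.39, CAV1 by 1.60, igfbp1b by 1.69 and the vascular peptide adm2a by 2.76. The immediate early mean was 8.77 in TAA mCherry-positive, 7.64 in TAA HEP, 8.78 in control HEP and 9.54 in TAA HSC libraries. With TAA, 5 of these 10 genes fell in HEP libraries (5.27% over all genes). The mean of the ER list was 7.28, 6.59, 7.39 and 7.41 in the same order. Neither mean was thus above that of control HEP or TAA HSC libraries. The TAA mCherry-positive and TAA HEP libraries come from different reporter lines, and line and sort cannot be told apart from cell type here.

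Against the mCherry-negative controls of the same line, 3706 genes (20.2%) differed, with 868 higher (4.73%) and 2838 lower (15.5%) in the TAA mCherry-positive libraries. Median centring gave 5369 genes that differed, so these shares also depend on the scaling. Of the endothelial markers 13 of 19 were lower and none higher. For 14 of the 19 all TAA values lay below all values of the mCherry-negative controls (23.2% over all genes), and for 17 of the 19 below all values of the control HEP libraries (25.2%). Of the immediate early genes 6 of 10 were higher, with fosl1a at a difference of 4.18 and ATF3 at 2.77, and 1 was lower. Treatment and sort gate both differ in this comparison and cannot be told apart.

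The change in mCherry-positive libraries was then set against that of the other lines. TAA libraries differed from control libraries in 1357 genes (7.4%) of the HEP line, 391 higher (2.13%) and 966 lower (5.27%), and in 1505 (8.21%) of the HSC line, 782 higher (4.26%) and 723 lower (3.94%), and the change itself differed from that in HEPs for 7492 genes (40.9%) and from that in HSCs for 7896 (43.1%). For 24.9% of all genes the change was lower in mCherry-positive than in HEP libraries and for 16.0% higher, and against HSC libraries it was lower for 26.0% and higher for 17.1%. All 19 endothelial markers fell further in mCherry-positive libraries than in HEP or HSC libraries by this test of the difference, with medians of -6.63 and -6.92 for the difference between the changes. The rise in the hepatocyte secreted protein list was larger than in HEPs for 33 of 36 genes and than in HSCs for 35 of 36. For the fatty acid oxidation list this held for 24 of 24 genes against HEPs and 22 of 24 against HSCs. The control levels limit what these counts can show. The endothelial mean was already 2.48 in control HEP and 2.17 in control HSC libraries, against 8.47 in control mCherry-positive libraries. The hepatocyte secreted protein mean was 10.80 and 10.71, against 7.40, and the fatty acid oxidation mean 7.36 and 7.26, against 5.03. The counts cannot tell a response to TAA from this difference between the control libraries. HEP and HSC are used as the labels give them. The stellate marker mean was 1.75 in control HSC and 1.53 in control HEP libraries, so it set these little apart. In TAA libraries it was 4.05 for HSCs and 1.29 for HEPs.

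Some genes were called in opposite directions. Between the mCherry-positive and HEP changes there were 201 such genes, 145 higher and 56 lower with TAA in the mCherry-positive libraries. Between the mCherry-positive and HSC changes there were 350, 166 higher and 184 lower. Of all 18336 genes, 9387 were called in the mCherry-positive, 1357 in the HEP and 1505 in the HSC libraries. Genes called in the same direction are not counted here, so whether opposite calls were frequent is not judged. ATF3 rose by 3.10 in mCherry-positive libraries and fell by 2.16 in HEP libraries. ldlra rose by 3.28 in mCherry-positive libraries and fell by 2.66 in HEP libraries. HSPB1 fell by 6.04 in mCherry-positive libraries and rose by 2.28 in HEP and 2.90 in HSC libraries. klf2a fell by 8.25 and rose by 2.19 in HSC libraries, and COL6A3 fell by 7.82 and rose by 3.09 there.

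**Figure D5:**
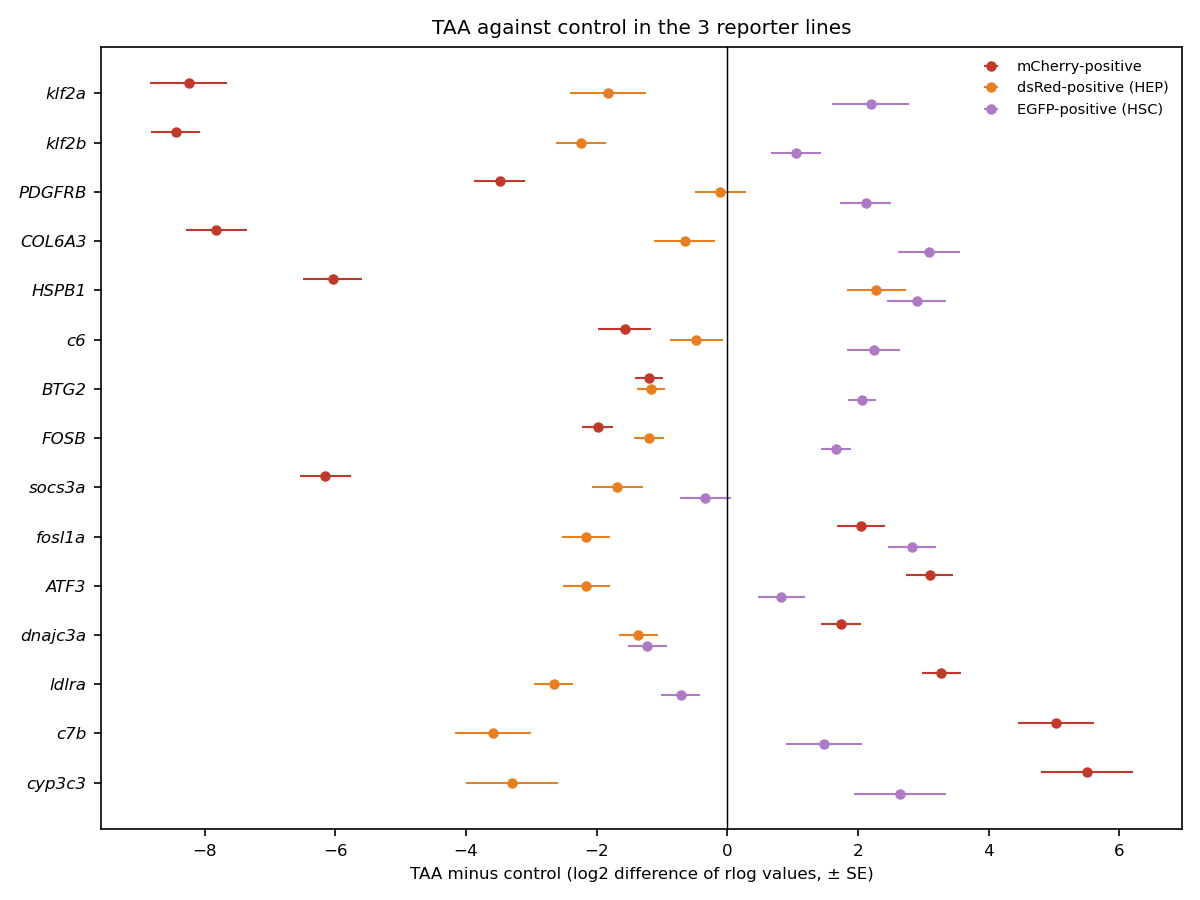
Difference between TAA and control libraries (log2 scale, with SE as error bars, 3 against 3 libraries) of 15 genes in the mCherry-positive, HEP and HSC libraries. HSPB1, klf2a and COL6A3 lie at -6.04, -8.25 and -7.82 in the mCherry-positive libraries and above 0 in HSC libraries, and ATF3 and ldlra lie above 0 in the mCherry-positive and below 0 in HEP libraries.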

How the data were processed

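RNA of cells sorted from dissociated livers was depleted of ribosomal RNA and made into libraries with a SMARTer low-input kit. The authors checked quality with FastQC 0.11.8 and cut adapters with Cutadapt 1.18, and rRNAdust filtered out ribosomal sequences. The authors aligned to GRCz11 with STAR 2.6 and SAMtools 1.9 and transformed gene counts with DESeq2. How reads were counted per gene is not given in the sources used here. The values deposited by the authors are on a log2 scale: the regularized logarithm (rlog), in which counts are scaled by library and shrunk towards the gene's mean, most strongly for low genes. Counts and depth are therefore unknown, low genes' differences are understated, and levels, which are not per length, are not compared between genes. The table holds 18336 genes and 27 libraries, of which no 2 are identical.

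Symbols were found for 17244 genes (94.04%) in the study's supplement and in a table of gene names, and capitals are kept as found there. Of 639 entries in the gene lists, 527 were matched to a gene by symbol. These are 499 distinct genes, because some genes stand in several lists, and their changes are then counted in each. The rest were left out because no symbol matched or several identifiers shared it. Some of these may be in the data under another symbol. Differences were tested with limma 3.58.1 in R 4.3.3 on the 18 reporter-positive libraries, with group means, a variance trend and Benjamini-Hochberg adjustment over all genes at 0.05. The comparison with mCherry-negative controls came from a separate limma fit, of the same form, to the 9 libraries of the mCherry line. A single mean over a list was tested with a two-sided exact permutation test. The fit of the 18 libraries was also run on simulated data with far fewer and smaller changes than those found here. That run does not test the fit for changes of this extent. Summaries were made in Python 3.11.15.

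The members of the comparison, its 34 gene lists (499 genes) and the tests were chosen with earlier results of these data known. Genes named are kdrl, in each list up to 3 rises and 3 falls, the largest called with groups that do not overlap, and the 10 largest of each direction over all genes with a symbol. Other genes were named after their values were seen, and so were the comparisons with mCherry-negative and TAA HEP libraries chosen. Alternatives were a fit of the 6 mCherry-positive libraries, no variance trend, a minimum mean rlog of 3, a minimum log2 change of 1, median centring, quantile normalization, a replicate block and leaving out each library. Nothing says that replicates came from separate fish, so p-values measure only the spread between these libraries, which may be technical.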

Additional observations from a re-analysis of the deposited data

Results flagged for a closer look

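The change with TAA in mCherry-positive libraries differed from that in HEP libraries for 7492 genes and from that in HSC libraries for 7896 genes, by a test of the difference between the changes. The genes named here were called in opposite directions in the mCherry-positive libraries and in another line, with an adjusted p under 0.05 in each and for the difference (limma), and for none was an explanation tested.

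Against HEPs, the change in mCherry-positive libraries minus that in HEP libraries was 8.80 on the log2 scale for cyp3c3, a P450 gene, and 8.62 for c7b of the membrane attack complex. It was 5.93 for the LDL receptor gene ldlra and 3.11 for dnajc3a, an ER cochaperone. The stress-induced factors ATF3 and fosl1a gave 5.25 and 4.21. The small heat shock gene HSPB1 gave -8.32, falling with TAA in mCherry-positive and rising in HEP libraries.

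Against HSCs, the change in mCherry-positive libraries minus that in HSC libraries was -11.41 for aoc2, -10.91 for COL6A3, -10.44 for klf2a, -8.94 for HSPB1 and -5.60 for PDGFRB, all of which fell in mCherry-positive and rose in HSC libraries. Smaller differences of the same direction were -4.33 for gstm.3, a glutathione transferase, -3.89 for cyp1c1, -3.81 for c6, -3.65 for FOSB and -3.26 for BTG2. The mitochondrial chaperone HSPD1 and dnajc3a rose in mCherry-positive and fell in HSC libraries, with differences of 3.10 and 2.96.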

How the results depend on the processing

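Median centring gave 5833 higher and 3756 lower genes, against 3611 and 5776 as deposited, and a minimum mean rlog of 3, which removes low genes, left 2935 lower genes. With that minimum, 1874 genes differed between TAA mCherry-positive and control mCherry-negative libraries, against 3706 without it. Median centring gave 5369 for this comparison. HSP90AB1 turned to -0.60 under quantile normalization and atf4b to 0.0132 under median centring, as did DDIT3, a gene not named by rule, to 0.09. Of 1386 values of the 117 genes named by rule, 1355 kept direction and threshold, 29 lost the threshold and these 2 turned round. Leaving out each library in turn gave 3267 to 3334 higher and 5111 to 5414 lower genes, 6745 to 7087 genes whose change differed from that in HEPs and 7112 to 7553 from that in HSCs, 540 to 727 genes between TAA mCherry-positive and TAA HEP libraries and 2803 to 3384 against the mCherry-negative controls. The endothelial marker mean stayed within -7.87 to -7.66 and the hepatocyte secreted protein mean within 4.04 to 4.63.

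A replicate block in the model gave 3564 higher and 5631 lower genes, while 7189 and 7625 changed differently from HEPs and HSCs, 679 differed from TAA HEP libraries and 3850 from the mCherry-negative controls. Same-numbered TAA and control libraries deviated together with correlations of 0.04, 0.01 and 0.07, too low to take the numbers as pairs.

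Without counts, depth sets no stated limit, and a value near or below 0 shows only that a gene was low. With 3 libraries against 3, an exact permutation test cannot go below 0.1.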

Other observations

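Further gene groups, chosen after their values were seen, are given as values. Over all 18336 genes, 19.7% were higher and 31.5% lower in TAA mCherry-positive libraries, and quantile normalization gave 5112 higher and 4557 lower. With TAA, 2.13% of all genes were higher and 5.27% lower in HEP libraries, and 4.26% higher and 3.94% lower in HSC libraries. Of 78 ribosomal protein genes, 77 were higher in TAA than in control mCherry-positive libraries and none lower by limma (median difference 2.18), and after quantile normalization 64 were higher and 1 lower. Their mean rlog was 10.99 to 11.69 in TAA and 8.99 to 9.40 in control mCherry-positive libraries, with no overlap. With TAA, 1 of these genes was lower in HEP libraries, and 2 were higher and 1 lower in HSC libraries. Of 13 mitochondrially encoded genes, 12 were higher in TAA mCherry-positive libraries (median difference 1.31), but after quantile normalization 5 were higher and 4 lower. Of 89 small structural and nucleolar RNAs, 50 were higher and 1 lower in TAA mCherry-positive libraries (median difference 1.17), while with TAA 17 were lower and 1 higher in HEP libraries and 25 lower and 1 higher in HSC libraries.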
